A study of Homo sapiens with 6 samples.

Results

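Golgins are long coiled-coil proteins that stand out from the surface of the Golgi apparatus and capture passing transport vesicles before they fuse. Each sits on its own part of the stack. Many are anchored either by a small GTPase of the RAB or ARF families or by a membrane span at the C-terminal end. The GRIP golgins GOLGA4, GOLGA1, GCC1 and GCC2 sit on the trans-Golgi network, where they receive carriers from endosomes. GOLGA2, TRIP11 and GOLGA3 sit on the early Golgi and its rims, and GOLGB1, also called giantin, and GOLGA5 span the membrane. GOLGA7 carries a golgin symbol but is no tether: it is a small accessory subunit of a Golgi enzyme that attaches palmitate to Ras proteins.

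The transcripts of these 10 genes were followed in 786-O cells, an established line from a clear cell renal cell carcinoma in which VHL is not functional, after knockdown of the transcription factor NFE2L3 by siRNA. The 10 rows were taken by gene symbol from a count table of 56303 genes, and all 10 passed the filter on low counts that left 19916 genes for testing. To find genes that depend on NFE2L3, RNA-seq was done on 3 NFE2L3 knockdown libraries, labelled 48 h, and 3 control libraries, labelled 0 h. The controls are of the same wild-type line and are titled NC, as the control siRNA of the study is named. The siRNA and the labelled time therefore cannot be told apart. In 2 of the knockdown samples the genotype label names NFE2L4 or NFE2L5, where title and source name give NFE2L3. Neither which NFE2L3 siRNA was used nor whether the 3 libraries of a group came from separate cultures is given in the sources used here, so p-values may measure technical spread only. The family was chosen by the measured doubling of GOLGA4 in this same contrast. The differences of the 10 members are therefore a description: no p-value of a member is quoted, and counts of members past a threshold are given beside the share of all tested genes and support nothing.

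NFE2L3 itself had 19.5, 19.1 and 20.8 CPM (counts per library size after TMM scaling) in the knockdown libraries, against 116.3, 112.5 and 115.3 CPM in the control libraries. Total counts ran from 51828446 to 56806368 in the knockdown libraries and from 53051297 to 57391929 in the control libraries. The renal factor PAX8 was present at 208.0 to 223.6 CPM in the knockdown libraries and at 237.3 to 244.4 CPM in the control libraries. Of the other markers listed for a renal carcinoma line, VIM averaged 1262 CPM in knockdown and 1349 CPM in control cells, and KRT18 103.3 and 122.5 CPM. PAX2 averaged 7.35 and 6.96 CPM, and EPCAM 9.05 and 7.47 CPM. CA9, a marker of clear cell renal carcinoma, was at most 0.107 CPM in any library. Markers of leukocytes (PTPRC), endothelium (PECAM1) and hepatocytes (ALB) were at most 0.4503 CPM in any library.

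The coding sequences of the golgins differ in make-up. To show this, the 20 codons in the middle of the coding sequence are printed for 5 members, 5′ to 3′, from GENCODE v44 transcripts, with every adenine in capitals and positions counted from the first coding base. The first 3 come from adenine-rich coding sequences and the last 2 from coding sequences near the median of the tested genes.
GOLGA4, bases 3397 to 3456, 25 adenines of 60: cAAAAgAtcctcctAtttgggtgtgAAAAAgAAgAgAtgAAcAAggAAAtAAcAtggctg
TRIP11, bases 2938 to 2997, 28 adenines of 60: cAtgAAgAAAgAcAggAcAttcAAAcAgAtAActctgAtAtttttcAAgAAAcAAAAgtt
GCC2, bases 2497 to 2556, 26 adenines of 60: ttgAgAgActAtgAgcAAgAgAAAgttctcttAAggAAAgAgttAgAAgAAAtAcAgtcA
GOLGA2, bases 1513 to 1572, 15 adenines of 60: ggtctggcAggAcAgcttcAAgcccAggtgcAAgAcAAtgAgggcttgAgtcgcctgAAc
GOLGA3, bases 2218 to 2277, 12 adenines of 60: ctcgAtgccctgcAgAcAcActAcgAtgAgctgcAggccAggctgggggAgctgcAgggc
The codons gAA and AAA, for glutamate and lysine, make up 4 of the 20 codons in each of the stretches of GOLGA4, TRIP11 and GCC2, and 0 of the 20 in those of GOLGA2 and GOLGA3.

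GOLGA4 stood at the top of the family both in its level and in its difference between the groups. It lies on chr3:37243177-37366751 (GRCh38) and encodes p230, a GRIP golgin that captures endosome-derived carriers at the trans-Golgi network. GOLGA4 had 1054, 1111 and 1143 CPM in the knockdown libraries, against 596.9, 549.3 and 463.9 CPM in the control libraries. The lowest knockdown library thus lay far above the highest control library. Its log2 fold change from edgeR came to 1.04 with a standard error of 0.06, and the knockdown mean was 205.4% of the control mean. A fold of at least 2 with an adjusted p under 0.05 was reached in the same direction by 0.487% of all tested genes, and this doubling is the value for which GOLGA4 was chosen. Its exons share 446 bases with RP11-259K5.2 on the opposite strand, which averaged 2.86 CPM. In bulk RNA, a changed share of cells in one state and a changed amount of RNA per cell cannot be told apart, for this gene or for those that follow.

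The other GRIP golgins differed from each other. GCC2, which lies on chr2:108448561-108509415 (GRCh38) and tethers carriers at the trans-Golgi network, had 194.2, 196.6 and 197.8 CPM in the knockdown libraries, against 145.8, 148.5 and 122.4 CPM in the control libraries, a log2 fold change of 0.50 (standard error 0.05). The 2 groups did not overlap. GCC1, on chr7:127580618-127593611, had 94.3, 95.7 and 102.1 CPM in the knockdown libraries, against 93.5, 90.6 and 88.1 CPM in the control libraries. The groups were separate, though by a narrow margin, with a log2 fold change of 0.10 (standard error 0.04). GOLGA1, on chr9:124878357-124948492, encodes golgin-97 and had 44.8, 41.4 and 43.95 CPM in the knockdown libraries, against 42.8, 44.5 and 42.04 CPM in the control libraries. Its groups overlapped and its log2 fold change was 0.01 (standard error 0.05). GOLGA1 shares 886 exon bases with SCAI on the same strand, and GCC1 shares 410 with ARF5 and 366 with FSCN3 on the opposite strand, as GCC2 shares 62 with GCC2-AS1, so that reads there may be assigned either way or left out.

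The golgins of the early Golgi and its rims were all higher in the knockdown libraries. TRIP11, on chr14:91965991-92040896, encodes a tether that grips strongly curved membrane with one end and binds the Golgi with the other. It had 163.1, 160.5 and 169.8 CPM in the knockdown libraries, against 104.4, 100.1 and 82.6 CPM in the control libraries, with a log2 fold change of 0.78 (standard error 0.06). No member but GOLGA4 had a larger difference. GOLGA2, on chr9:128255829-128275995, encodes the cis-Golgi matrix protein that binds the vesicle tether USO1. It had 270.3, 279.8 and 282.4 CPM in the knockdown libraries, against 223.3, 201.7 and 185.6 CPM in the control libraries, with a log2 fold change of 0.45 (standard error 0.05). GOLGA3, on chr12:132768909-132828858, encodes golgin-160, a caspase substrate. It had 153.7, 152.6 and 159.1 CPM in the knockdown libraries, against 132.4, 114.6 and 108.5 CPM in the control libraries, with a log2 fold change of 0.39 (standard error 0.05). For none of the 3 did the groups overlap. The value of GOLGA3 is uncertain, because 32.3% of its exon bases (3405 bases) also belong to AC127070.1 on the same strand, itself counted at 76.2 CPM. GOLGA3 also shares 125 bases with CHFR, and TRIP11 shares 530 with ATXN3, on the same strand.

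The 2 golgins with a membrane span differed from each other. GOLGB1, the giant tether of the Golgi rims, lies on chr3:121663199-121749767 and had 505.3, 537.9 and 551.1 CPM in the knockdown libraries, against 384.4, 356.2 and 284.3 CPM in the control libraries. The groups were wide apart, with a log2 fold change of 0.64 (standard error 0.07). GOLGA5, on chr14:92794231-92839963, captures vesicles that move within the stack. It had 160.5, 176.6 and 173.9 CPM in the knockdown libraries, against 167.7, 153.9 and 156.7 CPM in the control libraries. Here the lowest knockdown library fell below the highest control library, at a log2 fold change of 0.10 (standard error 0.04). GOLGA7, the palmitoylation subunit, was the scarcest member and had 15.3, 16.5 and 16.2 CPM in the knockdown libraries, against 14.3, 13.1 and 15.2 CPM in the control libraries. Its groups just failed to touch, at a log2 fold change of 0.17 (standard error 0.07).

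Of the 10 members, 6 were higher in the NFE2L3 knockdown at an adjusted p under 0.05 (edgeR), 0 were lower (0 also at an unadjusted p under 0.05, in DESeq2 and in limma-voom), and GCC1, GOLGA1, GOLGA5 and GOLGA7 did not pass. Among all tested genes, 12.7% were higher and 14% lower by that criterion, 26.7% in all. In 8 of 10 members every knockdown library lay above every control library, as in 19.1% of all tested genes, and in 39.5% of these the groups were apart in either direction. The median log2 fold change was 0.42 over the 10 members and 0.39 over the 9 without GOLGA4, beside -0.00066 over all tested genes. Since the contrast itself chose the family, nothing is read from these counts.

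**Figure D1:**
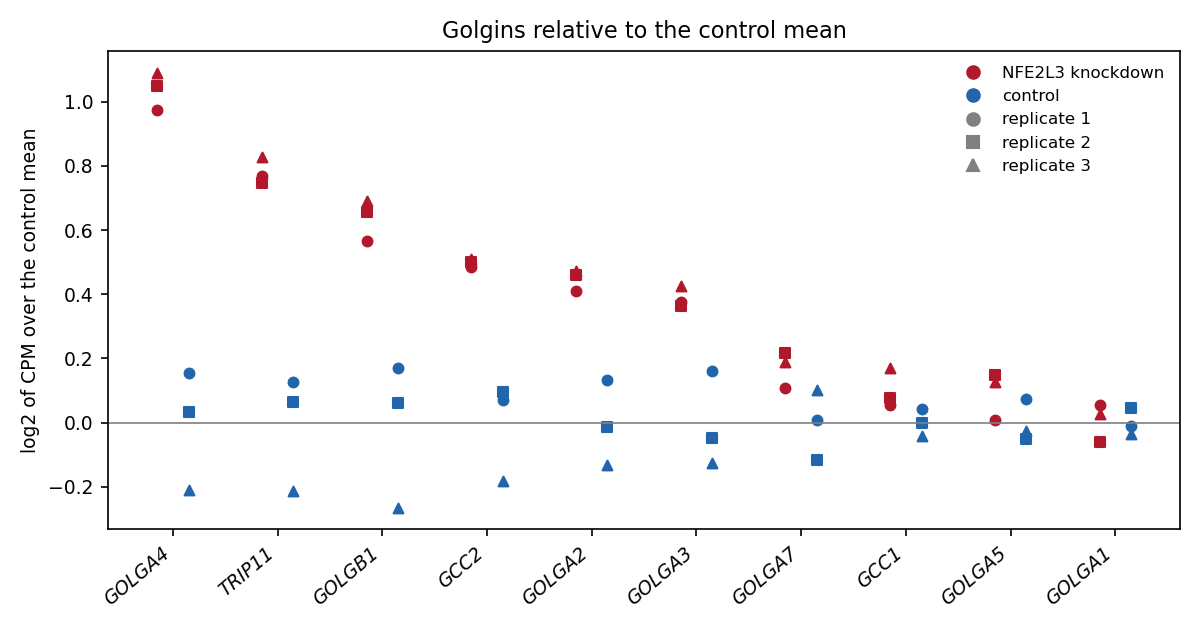
Each point is one library, plotted as the log2 ratio of its CPM to the control mean of that gene, with NFE2L3 knockdown in red left of control in blue and the replicate number given by the symbol. Genes run from GOLGA4, at a log2 fold change of 1.04, to GOLGA1 at 0.01, and control replicate 3 (blue triangle) is the lowest control for the 6 genes on the left.

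The control libraries differed among themselves, and not equally for all members. Control replicate 3 lay below the mean of the other 2 controls by log2 values of -0.38 for GOLGB1, -0.31 for TRIP11, -0.31 for GOLGA4 and -0.27 for GCC2, and by -0.19 for both GOLGA2 and GOLGA3. For GOLGA1, GCC1 and GOLGA5 the same value was between -0.06 and -0.04, for GOLGA7 it was 0.15, and its median over tested genes at 5 CPM or more was 0.0031. Without control replicate 3 the log2 fold change was 0.94 for GOLGA4, 0.68 for TRIP11, 0.52 for GOLGB1 and 0.41 for GCC2. Within the knockdown group GCC2 had 196.2 ± 1.84 CPM (SD, n = 3), beside 138.9 ± 14.4 CPM in the controls (SD, n = 3).

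Levels were compared between genes per kilobase of exon (RPKM). GOLGA4 averaged 102.7 ± 4.21 RPKM in knockdown and 49.99 ± 6.28 RPKM in control cells (SD, n = 3 each). GOLGA5 came next, at 51.7 ± 2.62 RPKM in knockdown and 48.4 ± 2.22 RPKM in control cells. In control cells these 2 did not differ beyond their spread, and in control replicate 3 GOLGA5 was the higher one, whereas in all 3 knockdown libraries GOLGA4 was far above. GOLGB1 followed with 44.8 ± 1.99 RPKM in knockdown and 28.8 ± 4.35 RPKM in control cells, and GOLGA2 with 39.9 ± 0.911 RPKM in knockdown and 29.2 ± 2.71 RPKM in control cells. These 2 were indistinguishable in control cells.

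GCC1 stood in the middle of the order at 19.5 ± 0.827 RPKM in knockdown and 18.2 ± 0.547 RPKM in control cells. Below it lay TRIP11 with 15.9 ± 0.464 RPKM in knockdown and 9.23 ± 1.12 RPKM in control cells, GCC2 with 14.8 ± 0.138 RPKM in knockdown and 10.5 ± 1.08 RPKM in control cells, and GOLGA3 with 14.7 ± 0.330 RPKM in knockdown and 11.2 ± 1.18 RPKM in control cells. TRIP11 was the lowest of these 3 in every control library and the highest of them in every knockdown library, while GCC2 and GOLGA3 stayed within each other's spread. GOLGA1 (7.21 ± 0.297 RPKM in knockdown, 7.16 ± 0.207 RPKM in control cells) and GOLGA7 (6.47 ± 0.251 RPKM in knockdown, 5.74 ± 0.435 RPKM in control cells) closed the order in all 6 libraries.

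The summed level of the 10 transcripts was 317.6 ± 10.8 RPKM in knockdown cells and 218.4 ± 18.3 RPKM in control cells (SD, n = 3 each). GOLGA4 supplied 32.3% ± 0.232 of that sum in knockdown cells and 22.8% ± 1.04 in control cells. The other 9 transcripts together came to 214.9 ± 6.60 RPKM in knockdown cells and 168.4 ± 12.1 RPKM in control cells.

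**Figure D2:**
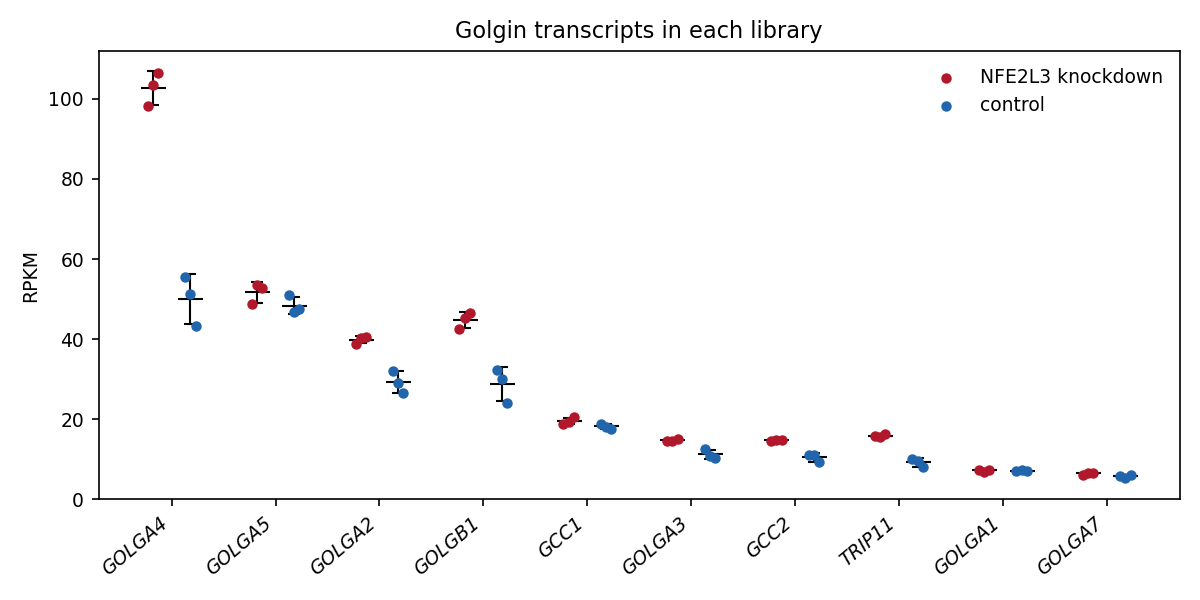
RPKM of each golgin in each library (points), with the mean and SD of the 3 libraries (black bars), NFE2L3 knockdown in red left of control in blue, ordered by control level. GOLGA4 and GOLGA5 share the top in control cells, at 49.99 and 48.4 RPKM, and in knockdown cells GOLGA4 stands alone at 102.7 RPKM.

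The genes whose profile over the 6 libraries came closest to that of GOLGA4 were sought among 11632 genes at a mean of 5 CPM or more, by the root mean square difference of log2 CPM after each gene was set to its own control mean. CENPE, the kinetochore motor, was nearest at 0.0265, with 334.3, 335.5 and 347.3 CPM in the knockdown libraries, against 184.0, 170.5 and 139.5 CPM in the control libraries. It shares with GOLGA4 both the doubling and the low value in control replicate 3. The next were the zinc finger gene ZNF267 (0.0839), the palmitoyltransferase ZDHHC11 (0.116), the peroxiredoxin PRDX4 (0.119) and YJEFN3 (0.123). The 6 libraries are few and the likeness is mostly the size of the difference itself. ZDHHC11 has a near copy and YJEFN3 shares exon sequence with neighbours, so both values are uncertain.

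The machinery that works with the golgins did not move as a block. The counts of this list and of those that follow stand beside 12.7% higher and 14% lower among all tested genes. Of the 12 GTPases and receptors that place golgins on membrane, 3 were higher, 2 lower and 7 not called at an adjusted p under 0.05 in edgeR, with a median log2 fold change of -0.03. RAB2A, a RAB of the early Golgi, averaged 186.0 CPM in knockdown and 153.5 CPM in control cells (log2 fold change 0.28, adjusted p = 1.37e-05 in edgeR). RAB33B was also higher (0.31), and the ARL1 regulator ARFRP1 (-0.22) and RAB1B (-0.15) were lower. ARL1, which recruits GOLGA4 and GOLGA1 through their GRIP domains, averaged 67.2 CPM in knockdown and 61.1 CPM in control cells and did not pass (adjusted p = 0.0577 in edgeR). The lower count was 1 without control replicate 2 or 3 or knockdown replicate 1 or 2.

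Among 13 vesicle-side and cytoskeletal partners, 4 were higher, 1 lower and 8 not called, with a median of 0.04. The higher ones included GORASP2, a stacking protein (0.23), and USO1, the tether that GOLGA2 binds (0.22). FAM91A1, part of a complex that associates with the golgin-binding protein TBC1D23, was lower (-0.18). MACF1, a cytoskeletal linker that binds GOLGA4, averaged 840.7 CPM in knockdown and 875.4 CPM in control cells, with overlapping groups.

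The other tethering systems of the Golgi were near the background. Of 27 subunits of the COG, GARP and TRAPP complexes, 3 were higher, 3 lower and 21 not called, at a median of 0.02. Within them, TRAPPC1 (0.32) and TRAPPC12 (0.26) of the TRAPP complexes and VPS53 (0.29) of GARP were higher, and VPS54, the partner of VPS53, was lower (-0.33). Of 16 Golgi SNARE genes and regulators 0 were higher in edgeR, DESeq2 and limma-voom, 4 were higher at an unadjusted p under 0.05, and 2 were lower, GOSR1 (-0.37) and VAMP4 (-0.15), at a median of -0.04. YKT6 (0.12) and the SNARE regulator VPS45 (0.17) came next and were not called. These small counts moved with the libraries used. Without any 1 of the 6 libraries 1 SNARE gene was called lower, and 3 were called higher without control replicate 2. Of the tethering complexes 1 subunit was called lower without knockdown replicate 2 or 3. For 19 genes of the COPI coat and the ARF cycle the counts were 3 higher and 5 lower, at a median of 0.02, with the coat subunit COPZ2 (-0.41), ARF3 (-0.21) and ARFGAP3 (-0.19) lower and ARFGAP1 higher (0.22). Without control replicate 3 these counts were 1 and 3, without control replicate 1 the higher count was 5, and without knockdown replicate 1 the lower count was 3.

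Of 12 coiled-coil and associated proteins of the Golgi outside the family 6 were higher, 2 lower and 4 not called, at a median of 0.16. The lower count was 1 without control replicate 3 or knockdown replicate 2. The dynein adaptor BICD2 averaged 94.1 CPM in knockdown and 63.1 CPM in control cells (0.58, adjusted p = 3.20e-10 in edgeR), CCDC186 (0.46) and the ARL1-binding protein SCOC (0.38) were also higher, and GOLPH3L, which binds Golgi phosphoinositide, was lower (-0.43). Around GOLGA7, 3 of 7 genes were higher, 1 lower and 3 not called, at a median of 0.08. The Ras palmitoyltransferase ZDHHC9, the catalytic partner of GOLGA7, was higher by 0.18 (adjusted p = 0.0417 in edgeR), and among other palmitoyltransferases ZDHHC18 (0.90) and ZDHHC14 (0.35) were higher and ZDHHC5 lower (-0.54). The higher count was 2 in DESeq2, with no scaling factor, with no filter and without any 1 library other than control replicate 1. The Ras genes HRAS and NRAS, whose products are palmitoylated, had values of 0.08 and 0.04 and were not called.

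Near copies of golgins share long stretches of sequence with each other, so that their counts cannot be assigned with certainty. Of 16 listed and tested, 7 were higher, 0 lower and 9 not called, at a median of 0.32. In DESeq2, in limma-voom or at an unadjusted p under 0.05 in edgeR, 0 were lower. Among all 42 tested genes named GOLGA, GOLGB or RGPD outside the family, 17 were higher and 0 lower at an adjusted p under 0.05 in edgeR. GOLGA8A averaged 871.0 CPM in knockdown and 634.0 CPM in control cells (log2 fold change 0.46), and GOLGA8B (0.44), GOLGA6L9 (0.45) and the GOLGA2 pseudogene GOLGA2P5 (0.57) were close to it. The listed RGPD genes, which carry a GRIP domain derived from GCC2, were not called. RGPD5, their most abundant member, averaged 90.7 CPM in knockdown and 90.0 CPM in control cells.

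Long coiled-coil proteins that work elsewhere in the cell were listed for comparison, with results of these data already known. Of 29 such genes 23 were higher, 1 lower and 5 not called, at a median log2 fold change of 0.35. Among all tested genes 12.7% were higher and 14% lower, and among those with 8000 to 12000 exon bases 18.9% and 18.5%. The list had a median of 36.2% adenine in its coding sequences. Of 142 genes with at least 3000 coding bases and at least 34% adenine, outside the golgins and all lists, 54.2% were higher and 5.63% lower. After CENPE (1.04), the centrosomal and ciliary protein CEP290 averaged 121.5 CPM in knockdown and 69.5 CPM in control cells (0.81), the nuclear pore filament TPR 762.3 CPM in knockdown and 450.9 CPM in control cells (0.76), and the kinetochore protein CENPF 1139 CPM in knockdown and 679.9 CPM in control cells (0.74). The adjusted p of these 4 in edgeR was at most 3.20e-10. ERC1, a scaffold at the cell cortex, was the single lower gene of the list (-0.27). Values of the size of the golgins thus also occurred in listed genes of the nucleus, centrosome and kinetochore. Since the list was made with the results known, it cannot show a trait of long coiled-coil genes. No test of a difference between the 2 sets was made. The median of control replicate 3 against the other controls was -0.17 over this list.

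**Figure D3:**
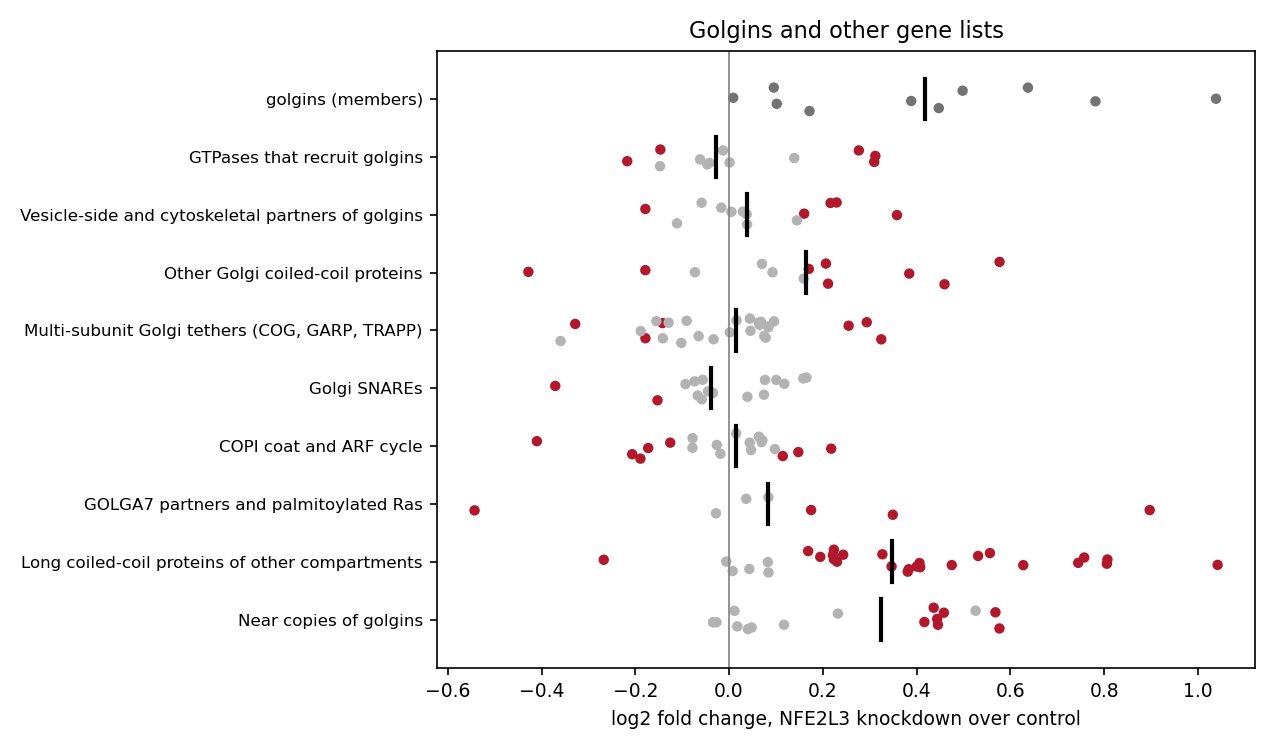
Log2 fold change, NFE2L3 knockdown over control, of every tested gene in the golgin family (top, dark grey) and in 9 further lists (red, adjusted p under 0.05 in edgeR; light grey, not called), with the median as a black bar. The medians of the golgins (0.42), of the near copies (0.32) and of the long coiled-coil proteins of other compartments (0.35) lie to the right, and those of the SNAREs, the COPI and ARF genes and the multi-subunit tethers lie near 0.

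The members differed in base composition, which the choice of the family did not use. Adenine made up 40.9% of the coding bases of GCC2, 40.2% of GOLGA4, 38.9% of TRIP11 and 37.6% of GOLGB1, beside a median of 25.7% over the tested genes with a known coding sequence. GOLGA2 and GOLGA3, with 27.0% and 26.2%, were near that median, with log2 fold changes of 0.45 and 0.39. GCC1, with 26.8%, was as near to it and had 0.10. GOLGA5, with 34.6%, had 0.10, GOLGA1, with 32.9%, had 0.01, and GOLGA7, with 30.9%, had 0.17. The difference of GOLGA2 was close to that of GCC2 (0.50) at a far lower adenine content. Codons for glutamate and lysine made up 28.9% of all codons in GOLGA4, 27.7% in GCC2 and 25.3% in GOLGB1. They made up 22.6% in TRIP11, 22.1% in GOLGA1, 20.5% in GCC1, 19.6% in GOLGA2, 18.9% in GOLGA3, 17.3% in GOLGA5 and 17.1% in GOLGA7. Of these codons, the forms with adenine at the last base are GAA and AAA. Their share was 64.4% in GOLGA4, 68.5% in GCC2, 67.9% in TRIP11 and 59.1% in GOLGB1, but also 64.3% in GOLGA5. It was 46.2% in GOLGA1, 42.3% in GOLGA7, 22.9% in GOLGA2, 27.2% in GOLGA3 and 22.6% in GCC1. GOLGA5 and GOLGA1 are the members whose groups overlapped. The printed stretches show a contrast only between the 5 genes chosen for it. In stretches cut the same way but not printed, adenines numbered 19 of 60 in GOLGB1, 20 in GCC1, 21 in GOLGA5 and 16 in GOLGA1. By this measure GOLGB1 was not above GCC1 or GOLGA5.

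The same composition was then looked up across the table, in bins chosen after the members had been seen. Of 165 tested genes with at least 3000 coding bases and at least 34% adenine in them, 59.4% were higher in the knockdown and 4.85% lower, at a median of 0.24. Without the golgins and every listed gene, 142 genes remained, of which 77 were higher and 8 lower, at a median of 0.21. The relation was not one-way among genes as long: with under 22% adenine 20.8% were higher and 7.57% lower, at a median of 0.05, and with 28% to 31% adenine 9.65% were higher and 24.5% lower, at a median of -0.03. The composition was known for 65.0% of the tested genes and for all 10 golgins. After subtraction of the median of genes of like adenine content, the log2 fold change was 0.86 for GOLGA4, 0.62 for TRIP11, 0.49 for GOLGB1 and 0.32 for GCC2, the last a fall by over 1.5 times, and 0.47 for GOLGA2 and 0.44 for GOLGA3. The same long adenine-rich genes had a median of -0.14 in control replicate 3 against the other controls. Whether base composition has a part in any of these differences was not tested.

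**Figure D4:**
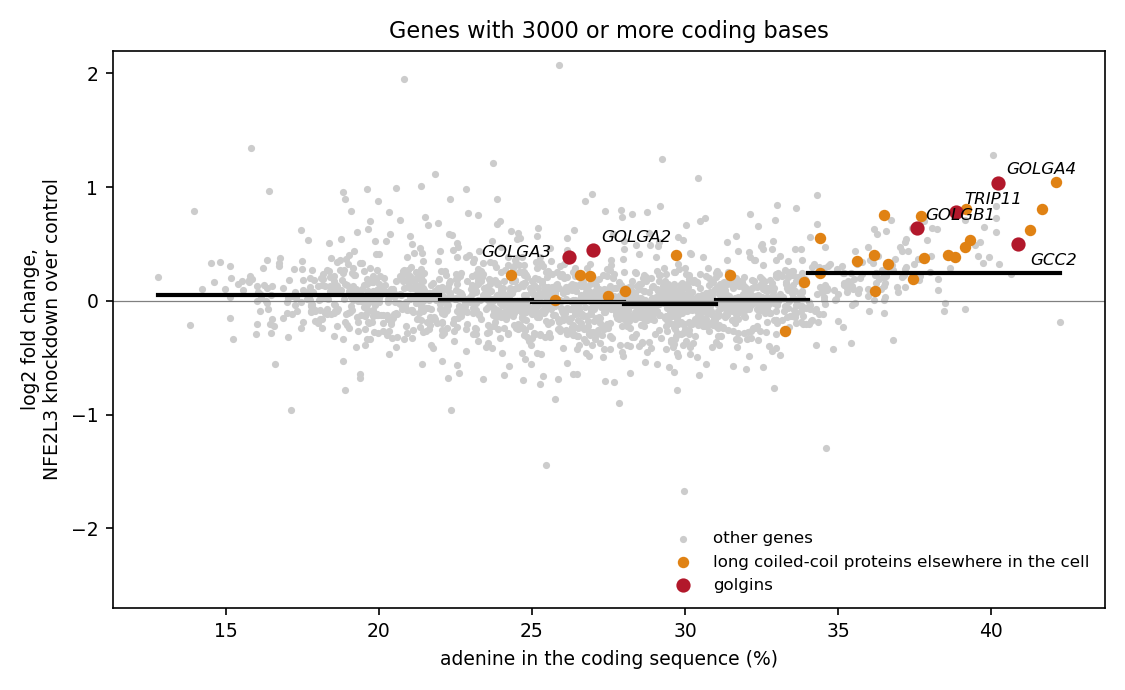
Adenine content of the coding sequence in percent against the log2 fold change, NFE2L3 knockdown over control, for 1945 tested genes with at least 3000 coding bases, with the median of each adenine bin as a black bar. GOLGA4, TRIP11, GOLGB1 and GCC2 lie above the bar of the bin from 34%, at 0.24, and GOLGA2 and GOLGA3 lie above bars close to 0.

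NFE2L3 belongs to the CNC family, whose members bind the antioxidant response element together with small MAF proteins. That element, searched as TGACNNNGC on both strands from 250 bases before to 50 bases after the start site in RefSeq (GRCh38.p14), was found in 13.3% of 35116 promoters and in GOLGA1 and GOLGA5 among the 8 members with an entry. GOLGA4 and GOLGA7 have no entry and were not searched. The 8 members have 10 promoters in all, and members are counted here as genes, beside shares of promoters. The Golgi stress element ACGTGGC, bound by TFE3, was found in 3.22% of promoters and in GOLGA1, GOLGA3 and GOLGA5. In GOLGA1 and GOLGA5 the 2 motifs overlap in 1 string, TGACGTGGC, which occurs in 0.268% of promoters and was looked up after it had been seen. GOLGA1 holds a further match of the antioxidant response element at positions -33 to -25, on the opposite strand and outside this string. The windows are shown with the string in capitals, on the strand of the gene.
GOLGA1, chr9:124941248-124941276, minus strand, first capital at position -183 from the start: ggccgctcgcTGACGTGGCgaactgggct
GOLGA5, chr14:92794115-92794143, plus strand, first capital at position -180, motif read on the opposite strand: ccggcggcgaGCCACGTCAcacgcacgca
A match is a string of letters and no measure of binding.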

How the data were processed

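Stranded mRNA libraries with molecular identifiers were sequenced as read pairs. Per the submitters' processing notes and the study's methods, trimming by the authors used Trimmomatic 0.36, reads of 1 identifier were merged, and mapping to the genome of Ensembl release 87 used STAR 2.5.3a, with exon counting by featureCounts (Subread 1.5.1). They deposited raw counts per gene and library. The strand setting and the treatment of multi-mapping reads are not given in the sources used here. Among nonzero counts below 30, between 67.6% and 69.9% in each library were even numbers, which counting both mates would give, and halved counts were tried.

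CPM, RPKM and tests were computed in R 4.3.3 with edgeR 4.0.16 (TMM, filterByExpr with a minimum count of 10, quasi-likelihood test, Benjamini-Hochberg adjustment over all 19916 tested genes, 3 libraries against 3, no replicate block). Deposited columns left unused for want of a sample numbered 0. Standard errors are those of log2 fold changes. The biological coefficient of variation was 4.76%, and no libraries of a group agreed within sampling noise. The fit was tested on simulated counts.

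Members and lists were chosen with earlier results of these data known. Named were the 10 members, NFE2L3, the genes of smallest adjusted p in each list, at most 4, the 5 genes nearest to GOLGA4 in profile and genes sharing exon bases with a member. Of the genes so named, 1 is not reported here. ERC1, ARL1, MACF1, HRAS, NRAS, RGPD5 and the cell type markers were named in addition. Base composition came from the longest coding transcript of GENCODE v44 and promoters from RefSeq. Alternatives were RLE, upper quartile and no scaling factors, DESeq2 1.42.0, limma-voom (limma 3.58.1), testing unfiltered genes, requiring 10 counts in each library, halved counts, a replicate block, leaving out each library, and centring on genes of like exon length or, added after the data were seen, of like GC or coding adenine content.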

Additional observations from a re-analysis of the deposited data

How the results depend on the processing

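The number of golgins past an adjusted p of 0.05 in the higher direction ran from 6 to 8 over the alternatives (8 with upper quartile factors or without control replicate 1), with 0 lower throughout. Nothing is read from this, since the contrast chose the family. The log2 fold change of GOLGA4 was between 0.94 and 1.12 without any 1 library. Centred on genes of like coding adenine content it was 0.86 for GOLGA4, 0.62 for TRIP11 and 0.32 for GCC2. GOLGA1, close to 0, turned to -0.0030 with no scaling factor and ran from -0.0148 to 0.0417 without 1 library.

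Counts of 5 lists moved by over 1.5 times. Golgi SNAREs called higher were 2 with RLE factors, 2 with at least 10 counts in every library, 2 with halved counts and 4 with upper quartile factors, and 0 to 3 without 1 library. SNAREs called lower were 1 with upper quartile factors, 1 with no filter and 1 without any 1 library. Multi-subunit tethers called lower were 1 with upper quartile factors and 1 to 4 without 1 library. Without 1 library, 1 to 2 GTPases and 1 to 2 other Golgi coiled-coil genes were called lower, and 1 to 5 COPI and ARF genes were called higher and 3 to 5 lower. The cause was not tested.

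With a replicate block 6 golgins were called higher, and 1 multi-subunit tether and 1 SNARE were called lower. Libraries with the same number did not deviate together (correlations across genes of -0.06, -0.16 and -0.07, beside -0.01 to 0.08 for different numbers). No pairing by number was thus seen. What the numbers stand for, or whether libraries shared a batch, cannot be told from this. The limits are 3 libraries a group of unstated independence, a labelled time that runs with the siRNA, reads shared with overlapping genes and near copies, and counts that may hold both mates of a pair.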
